A study of Mus musculus with 13 samples.

Results

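Akt1, Akt2, Gsk3a and Gsk3b, 4 of the 21887 protein-coding genes in the gene table, were examined for STAT3 binding in activated mouse B cells. Peaks were counted at a gene when they overlapped its RefSeq span extended by 20000 bp on each side. The genes were chosen from measured values: strong peaks at Gsk3a and Akt2 in earlier results of these data named them, and Gsk3b and Akt1 are their paralogues. Positions, fold enrichments, ranks and presence of the peaks are therefore descriptions, and none of them is tested. The 4 extended spans held 9 of the 13513 peaks and 3 of the 11227 merged regions. One region lay at Gsk3a, one at Akt2 and one at Akt1, and Gsk3b had none.

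Akt kinases act downstream of phosphoinositide 3-kinase (PI3K), which B cells engage through the antigen receptor and costimulatory receptors. Active Akt phosphorylates and inhibits both Gsk3 kinases, which otherwise restrain glycogen synthesis and mark substrates such as beta-catenin and Myc for degradation. STAT3 is the transcription factor that the IL-21 receptor activates through JAK kinases.

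STAT3 was mapped by CUT&RUN, in which an antibody directs a nuclease to its target and the released fragments are sequenced. Mouse splenic B cells had first been activated for 96 h, with anti-CD40 at 1 µg/mL plus IL-4 at 12.5 ng/mL, and sorted into IgM+ and IgG1+ cells. Then 400000 sorted cells were restimulated for 1 h with anti-CD40 plus IL-4 (again 12.5 ng/mL) or with anti-CD40 plus IL-21 at 10 ng/mL, so adding IL-21 and withholding IL-4 cannot be told apart. The 12 antibody libraries comprised 4 wild-type (WT) groups of 2 libraries and 4 STAT3 knockout (KO) groups of 1 library, 1 group for each combination of cytokine and isotype. The labels do not name the knockout allele or a Cre driver, and whether replicates are different animals is not stated. Peak lists give no RNA levels, so cell identity and loss of STAT3 rest on the labels. The lists held 865 to 2034 peaks in WT with IL-21, 623 to 1455 in WT with IL-4 and 648 to 1892 in KO.

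The start-site windows of Gsk3a and Akt2 are shown because the peaks at both genes overlapped them. Each runs 5′ to 3′ on the gene's own strand, from 250 bases before to 50 bases after the RefSeq start (RefSeq sequence, GRCm38.p6, the assembly behind mm10). Capitals mark the letters TTCNNNGAA, the palindromic form to which STAT proteins bind, in Akt2. In Gsk3a they mark CCNGNGTGC, letters picked out after the sequence was read.
Akt2 (chr7:27591302-27591601, plus strand): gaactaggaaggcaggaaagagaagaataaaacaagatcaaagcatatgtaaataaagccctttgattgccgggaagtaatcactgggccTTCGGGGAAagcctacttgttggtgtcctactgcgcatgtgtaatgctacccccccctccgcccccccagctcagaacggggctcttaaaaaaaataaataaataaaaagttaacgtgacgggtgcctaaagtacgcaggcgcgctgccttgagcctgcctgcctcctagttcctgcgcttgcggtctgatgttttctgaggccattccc
Gsk3a (chr7:25237802-25238101, minus strand): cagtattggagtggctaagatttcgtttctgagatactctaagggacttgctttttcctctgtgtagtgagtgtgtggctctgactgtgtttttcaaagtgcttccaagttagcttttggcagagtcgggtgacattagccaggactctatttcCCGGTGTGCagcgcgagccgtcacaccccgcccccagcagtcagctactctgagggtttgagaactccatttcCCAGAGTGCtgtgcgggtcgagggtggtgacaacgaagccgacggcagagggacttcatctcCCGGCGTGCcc

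The Akt2 window held 1 match to TTCNNNGAA, TTCGGGGAA, at 27591392 to 27591400 and so 160 to 152 bases before the start. All 4 Akt2 peaks covered it, and their summits lay 123 to 173 bp from its centre. Of all 32817 start windows of the same length, 8.29% held 1 or more matches. The Gsk3a, Akt1 and Gsk3b windows held 0 matches to TTCNNNGAA. All 4 windows held 0 matches to TTCNNGAA, found in 8.51% of windows, and 0 to the form with 1 base more than TTCNNNGAA between its arms, found in 6.94%. The table lists 3 further start windows for Akt2 and 1 for Akt1, which lie inside the genes and held 0 matches to these 3 forms. The Gsk3a window had 3 copies of CCNGNGTGC on its own strand, where 5.95% of windows had at least 1 copy on either strand and 0.0305% had 3 or more. This motif was fitted to that sequence, so its frequency is a description only. Its copies lay 352 to 557 bp from the Gsk3a summits, which fell outside the printed window, as did those of Akt2. From the upstream end, the copies were covered by 4, 3 and 2 of the Gsk3a peaks. The 3 further start windows of Akt2 held 1 copy of CCNGNGTGC. Sequence directly under the summits was not analysed here. The GC content was 54.3% in Gsk3a, 63.0% in Gsk3b, 50.0% in Akt2 and 52.3% in Akt1.

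Akt2, the isoform best known for insulin-regulated glucose uptake, had a single site, at its start (chromosome 7, 27591003 to 27592463). Every WT IL-21 library had a peak there, and no WT IL-4 or KO library did. The fold enrichment is the authors' ratio of summit signal to local background within a library, with 1 added to each. It was 22.0 and 14.3 in the IgM libraries and 10.8 and 20.7 in the IgG1 libraries. The first IgG1 library was the lowest and the isotypes overlapped. The mean fold was 16.9 ± 5.31 (SD, n = 4). The −log10 p of these peaks was 72.9 and 48.5 in IgM cells and 28.1 and 71.1 in IgG1 cells.

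The fold and the −log10 p of a peak together fix the number of fragments stacked at its summit, which shows the depth behind it. At Akt2 this pileup was 64 and 53 fragments in IgM cells and 33 and 65 in IgG1 cells. The exact 95% Poisson interval of the lowest was 22.7 to 46.3 fragments and that of the highest was 50.2 to 82.8. Intervals cover counting error only, and amplified fragments are not independent molecules. The local background was 1.95 and 2.78 fragments in IgM cells and 2.15 and 2.19 in IgG1 cells, near the lowest background found anywhere in these libraries (1.83 to 2.61).

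Akt2 summits fell within 50 bp of each other, at 27591223 to 27591273, which is 279 to 329 bp before the start. Of the regions found in WT, 98 were gained, meaning that each of the 4 WT libraries with IL-21 had a peak there while none with IL-4 did. Over these 98 regions the median spread of summits was 155.5 bp (6 to 930). The upstream edges of the Akt2 peaks also lay within 49 bp of each other. Their downstream edges differed by 639 bp: the second IgM and the second IgG1 peak were 1345 and 1450 bp wide and ran farther into the gene, while the first of each isotype was 853 and 822 bp wide. All 4 peaks covered the start base and the whole printed window. No other protein-coding gene lay close, the nearest span being that of 2310022A10Rik at 9158 bp from the summit. A pseudogene, Gm18046, was 2311 bp away.

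Akt1, the most broadly expressed Akt isoform and a regulator of cell survival, had 1 peak in 1 of 12 libraries. It was found in the first WT IgG1 library with IL-4 (chromosome 12, 112654746 to 112654970). This peak was 225 bp wide and lay within the gene, 19964 bp past the start and 1099 bp short of the far end. Its fold was 4.38, its −log10 p 7.33 and its pileup 14 fragments (exact 95% Poisson interval 7.65 to 23.5). It ranked 336 of 651 in its list, near the middle. The other IgG1 library with IL-4 had no peak there, nor had any IL-21 or KO library, and no library had a peak over either of the 2 RefSeq start windows of Akt1.

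**Figure D1:**
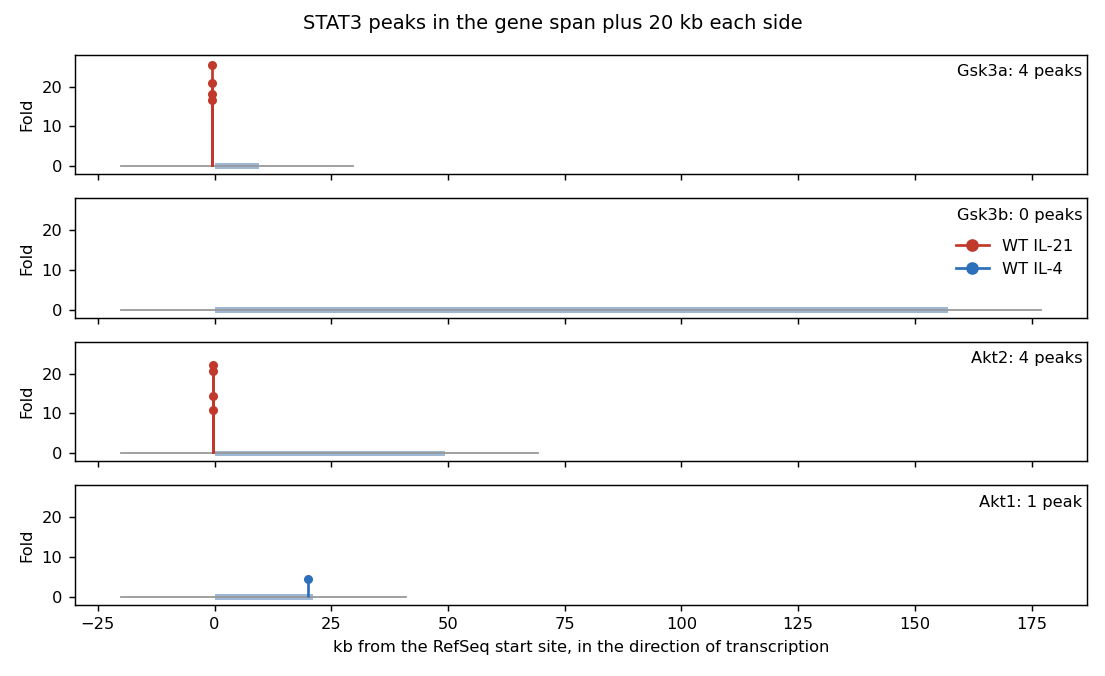
Fold enrichment of each peak (vertical lines and dots, coloured by treatment) against the distance in kb from the RefSeq start, for the 4 genes. Blue bars are gene spans and grey lines the 20 kb added on each side. The peaks of Gsk3a and Akt2 stand at the start, the Akt1 peak lies 19964 bp into the gene, and the Gsk3b panel is empty.

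Gsk3a encodes GSK-3 alpha, an inhibitor of glycogen synthase in resting cells. Its only site also lay at the start (chromosome 7, 25237427 to 25238731), again found in every WT IL-21 library and in none of the WT IL-4 and KO libraries. The fold was 25.5 and 16.7 in IgM cells and 18.1 and 20.9 in IgG1 cells. The isotypes overlapped, and the mean was 20.3 ± 3.89 (SD, n = 4). The −log10 p was 145 and 97.5 in IgM cells and 79.2 and 97.4 in IgG1 cells.

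Gsk3a pileups were 132 and 108 fragments in IgM cells and 81 and 94 in IgG1 cells, so here the isotypes did not overlap. The same order was seen in 40.8% of the 98 gained regions, and the depth of the libraries is unknown. The local background at Gsk3a was also higher in IgM cells, at 4.22 and 5.53 fragments against 3.54 in each IgG1 library. Whether it bears on the pileups was not tested, and the fold, which divides by it, did not separate the isotypes.

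The Gsk3a summits fell within 70 bp, at 25238295 to 25238365, which is 444 to 514 bp before the start on the minus strand. Peaks were 1305 and 739 bp wide in IgM cells and 856 and 629 bp in IgG1 cells, and they shared a stretch of 629 bp. The start base itself was covered in 3 of 4 libraries, and 226 to 300 bases of the printed window were covered. The nearest other protein-coding span was that of Erf, an ETS-family repressor, at 4214 bp from the highest summit. The start of Erf was 12412 bp from it.

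**Figure D2:**
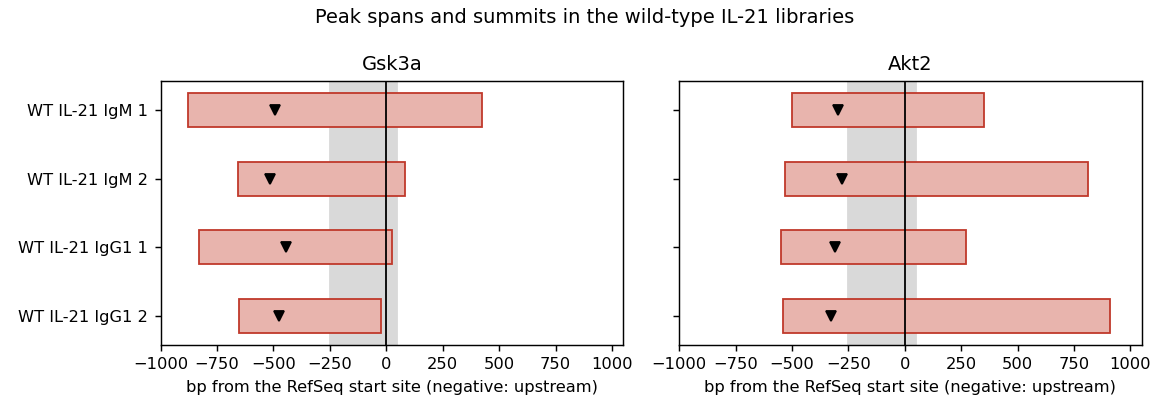
Peak spans (bars) and summits (triangles) in the 4 WT IL-21 libraries, in bp from the RefSeq start (black line) in the direction of transcription. Grey marks the printed 300-base window. Summits lay 444 to 514 bp upstream at Gsk3a and 279 to 329 bp upstream at Akt2.

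Gsk3b encodes GSK-3 beta, the paralogue most studied in Wnt signalling and in the turnover of Myc. None of the 12 libraries had a peak in its extended span, although this was the longest of the 4 at 197084 bp, against 49594 bp for Gsk3a, 89275 bp for Akt2 and 61064 bp for Akt1. The nearest peak to Gsk3b was 165618 bp from the gene, in the KO IgG1 library with IL-4 (fold 3.65). Outside the extended spans, the nearest peaks were 100313 bp from Akt2, 23605 bp from Akt1 and 29745 bp from Gsk3a. The one past Akt1 was found in the KO IgG1 library with IL-4 alone (fold 5.30). The one past Gsk3a lay over one end of the span of Cic, a transcriptional repressor (25267596 to 25268337), and was again gained, with no KO peak (fold 3.70 to 7.27). A further region within Cic (25281736 to 25282525) was also gained (fold 3.59 to 16.5 over all its peaks), but 1 KO library had a peak there.

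Within each paralogue pair, 1 gene thus had a site in all 4 WT IL-21 libraries at its start and the other had none in any IL-21 library. Of all 7461 regions found in WT, the 98 gained ones made up 1.31%. This share was 3.12% without the first IgG1 library with IL-21 and 2.04% without the second IgM library with IL-21. Counted within an isotype, 6.64% of regions found in WT IgM cells and 5.54% of those in WT IgG1 cells were gained, and both the Gsk3a and the Akt2 region were gained in each. Across protein-coding genes, 39.6% had any region within the extended span and 0.772% had a gained one, beside 3 and 2 of the 4 genes here. The genes were picked with their peaks known, so these shares give only a scale.

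The absence of KO peaks was not particular to the 2 sites. KO peaks were missing at 93.9% of the 98 gained regions and at 95.3% of all regions found in WT. The 95.3% includes regions found in 1 WT library alone, which have no KO peak by definition. Of all 11227 regions, 10180 were found in exactly 1 of 12 libraries. The smallest pileup called was 10 to 11 fragments in the KO lists and in the WT IL-4 lists, below the 33 to 132 fragments at Akt2 and Gsk3a. A pileup under the calling limit can go unlisted, so no peak does not show that STAT3 was absent. Each KO group has 1 library and no replicate check.

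**Figure D3:**
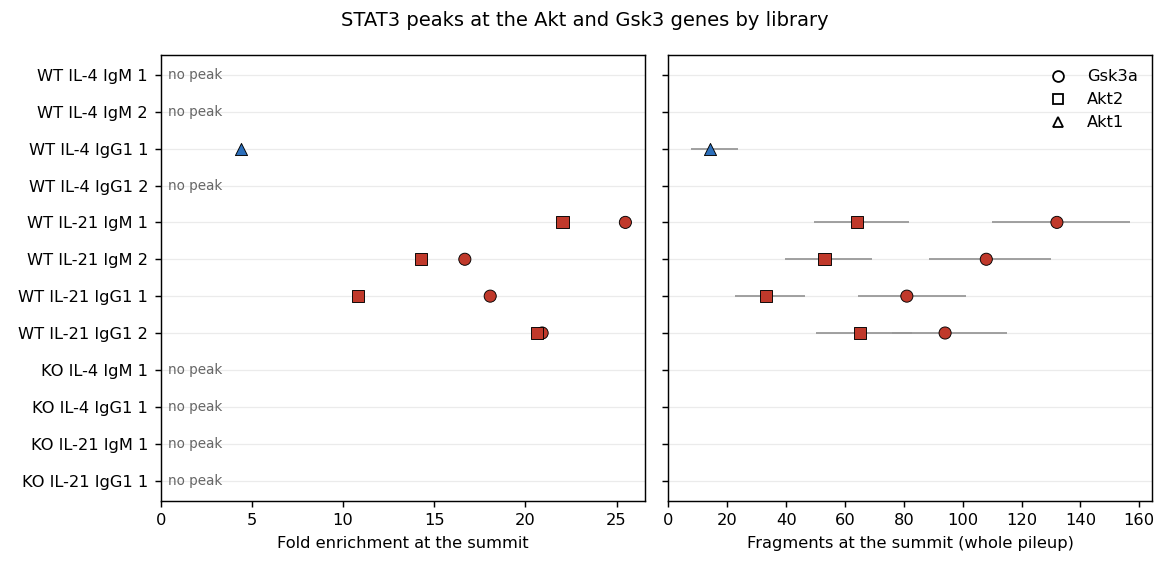
Fold enrichment (left) and fragments at the summit (right, with exact 95% Poisson intervals) of each peak at Gsk3a (circles), Akt2 (squares) and Akt1 (triangles) in the 12 libraries. Red stands for WT with IL-21 and blue for WT with IL-4, and libraries without a peak at the 4 genes are marked. Gsk3a lies to the right of Akt2 in the 4 WT IL-21 libraries on both scales. The fold has 1 added to signal and to background.

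Gsk3a and Akt2 were set against each other within each WT IL-21 library. The Gsk3a pileup was 2.06 and 2.04 times that of Akt2 in the IgM libraries and 2.45 and 1.45 times in the IgG1 libraries, higher in 4 of 4 (mean log2 ratio 0.97 ± 0.32, SD, n = 4). In the second IgG1 library the counting intervals of the pileups overlapped (76.0 to 115 and 50.2 to 82.8 fragments). The fold differed less, at 1.16 and 1.17 times in IgM and 1.67 and 1.01 times in IgG1 cells (mean log2 ratio 0.30 ± 0.31, SD, n = 4), a mean within its spread. The local background at Gsk3a was 1.62 to 2.16 times that at Akt2. In the first IgM and second IgG1 library this ratio (2.16 and 1.62) exceeded that of the pileups (2.06 and 1.45). There the fold was higher at Gsk3a only through the 1 added to pileup and background. In the second IgM and first IgG1 library the pileup ratio was the larger (2.04 against 1.99 and 2.45 against 1.65). The 2 regions lie 2352271 bp apart on chromosome 7. Between them lay 24 regions, of which 2 were gained, the 2 at Cic given above.

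Ranked by −log10 p within its list, the Gsk3a peak stood at 19 of 2034 and 17 of 1171 in IgM cells and at 15 of 865 and 18 of 1485 in IgG1 cells. It was thus in the top 0.934% to 1.73% of each list. The Akt2 peak stood at 49 and 44 in the IgM lists and at 48 and 30 in the IgG1 lists, the top 2.02% to 5.55%. By fold the Gsk3a peak ranked 16, 15, 5 and 11 and the Akt2 peak 25, 20, 25 and 12, in the same order of libraries. Among the 98 gained regions Gsk3a was 3 by mean fold and 2 by mean percentile of −log10 p, and Akt2 was 8 and 7.

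**Figure D4:**
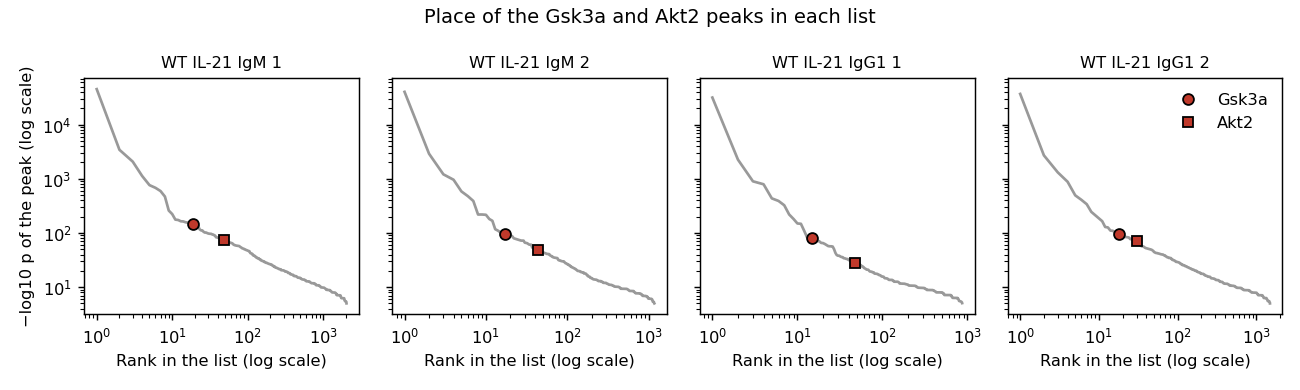
The −log10 p of each peak against its rank in the list, both on log scales, for the 4 WT IL-21 libraries (grey lines). Symbols mark Gsk3a (circles, ranks 15 to 19) and Akt2 (squares, ranks 30 to 49).

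Of the 98 gained regions, 44.9% had their best summit within 1000 bp of a RefSeq start, as Gsk3a and Akt2 do, against 12% of the 10180 regions found in exactly 1 library. The 92 gained regions without a KO peak were compared by their percentiles in the 4 WT IL-21 lists. The regions most like Gsk3a lay within Gen1, within Rabggta and 13532 bp from Socs3 (mean differences of 0.309, 0.399 and 1.22 percentage points). Those most like Akt2 were nearest to Med29, Elmo2 and Socs3 (0.704, 0.825 and 0.879).

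Other genes of the pathway were read in the same way. Of 38 genes of PI3K-Akt signalling, 26 (68.4%) had a region within the extended span and 0 had a gained one, where 39.6% and 0.772% of all protein-coding genes did. The lists were drawn up with peaks of these data known, and the counts are descriptions. Of the 55 regions 45 came from a single library. Within IgM cells 2 of the 38 genes had a region gained by that isotype's 4 WT libraries, and within IgG1 cells 0, where 2.28% and 1.44% of all protein-coding genes had one. The 2 genes were Pik3cd, the PI3K catalytic subunit delta of leukocytes, within the gene (3 WT IL-21 libraries, fold 5.85 to 10.9), and Mdm2, a ubiquitin ligase that Akt phosphorylates, 4387 bp away (2 libraries, fold 11.7 and 11.9). Without the first IgG1 library with IL-21 the count of gained genes was 1, Pik3cd.

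Of 25 genes listed for Gsk3, Wnt and glycogen signalling, 16 (64.0%) had a region and 3 (12%) a gained one, beside the same 39.6% and 0.772% of all protein-coding genes. This list too was drawn up with peaks of these data known, so the shares are descriptions. Of the 30 regions, 20 came from a single library. Crtc2, a coactivator of CREB, had a gained region within the gene (chromosome 3, 90253563 to 90254637, fold 7.81 to 25.4, no KO peak). Another lay 1010 bp outside it, within Dennd4b, and also had a peak in 2 KO libraries. A stronger region 4881 bp outside Crtc2, within Slc39a1, was not gained. It had peaks in 4 WT IL-21 libraries (fold 40.5 to 95.4) and in 3 WT IL-4 libraries. Dvl2, a Wnt signal transducer that acts on the Gsk3 destruction complex, had a gained region 8729 bp away (fold 5.40 to 14.1), which was nearest to Gabarap. Mcl1, an anti-apoptotic protein that Gsk3 marks for degradation, had one 9532 bp away (fold 3.45 to 8.61), nearest to Adamtsl4. With 5000 bp in place of 20000 bp on each side, the count of gained genes was 1, Crtc2.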

How the data were processed

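One peak list per antibody library was used (12 lists), and the input was not analysed here. Build mm10, MACS2 2.2.7.1, Bowtie2 2.4.1, deepTools 3.5.1 and Trimmomatic 0.39 are named, without roles, per the submitters' processing notes. The peak-calling control and the handling of the yeast spike-in are not stated in the labels. For every peak the authors deposited a fold (ratio of summit to local background, 1 added to each) and the −log10 of p and of q. They also deposited a score, which is 10 times the −log10 p cut to a whole number.

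Of 13908 deposited peaks, 13513 on chromosomes 1 to 19, X and Y were merged across libraries on at least 1 bp of overlap. Pileup n and background b were solved from fold = (n + 1)/(b + 1) and the Poisson tail (within 0.001 on the −log10 scale, met by each of the 9 peaks). The solving step was tested on data simulated with the same formula, at pileups above the 14 fragments of Akt1. It does not show that the authors used this formula. Spans, strands and starts came from RefSeq tables on GRCm38.p6, where all 4 symbols matched. Python 3.11.15, pandas 2.3.3, numpy 2.4.6 and scipy 1.17.1 were used.

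The genes, the pathway lists and the rules were chosen with earlier results of these data known. Named were the 4 genes, regions found in 2 or more libraries, their nearest genes, pathway genes with a gained region, and 3 most similar regions per gained site. Alternatives were a −log10 q of at least 2 or 5, lists of equal length, a summit within 200 bp, windows of 5000 and 50000 bp, and leaving out each WT library.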

Additional observations from a re-analysis of the deposited data

How the results depend on the processing

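In the 12 alternatives other than window length (8 of them leaving out 1 WT library), the Gsk3a and Akt2 regions kept a peak in each WT IL-21 library used and in no WT IL-4 or KO library. Their mean percentile by −log10 p, 98.7 and 96.6, moved with a −log10 q of at least 5 (96.96 and 92.03) and with the top 623 peaks of each list (97.28 and 93.27), since both shorten the lists. Windows of 50000 bp gave 9 regions and 4 gained ones in place of 3 and 2 (4 also within IgM and within IgG1 cells). Of the 2 added, both lie in Cic. The Akt1 peak was lost with a −log10 q of at least 5 and without the first WT IgG1 library with IL-4. Gained genes of the Gsk3, Wnt and glycogen list fell from 3 to 1 with windows of 5000 bp. They fell to 2 with a −log10 q of at least 5 and with the top 623 peaks of each list. Gained genes of PI3K-Akt signalling ranged from 0 to 1 over the left-out libraries. The share of gained regions rose from 1.31% to 3.12% without the first IgG1 library with IL-21 and to 2.04% without the second IgM library with IL-21. It rose to 3.67% with a −log10 q of at least 5 and to 2.13% with the top 623 peaks of each list. No paired analysis was possible because no difference between groups of libraries was fitted, so there was no fit to which replicate numbers could be added. Depth is known only through the pileup at called peaks.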
